A study of Homo sapiens with 20 samples.

Results

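The regions described here are the 1832 stretches of RNA that carried an IGF2BP3 crosslink cluster after 4 h of tunicamycin and none in the vehicle control, out of 68591 merged regions (2.67%). They were chosen by measured values: clusters of the 3 tunicamycin 4 h lists and the 3 DMSO lists were merged where they overlapped by at least 1 nt on the same strand, without the mitochondrial chromosome. A merged region was kept when at least 2 of the tunicamycin 4 h lists and none of the DMSO lists had a cluster in it. The mirror rule, at least 2 DMSO lists and no tunicamycin 4 h list, gave 1391 lost regions, and 16348 regions had clusters in at least 2 lists of each group (called shared regions). Since the 6 lists chose the members, their tunicamycin 4 h and DMSO values are given as a description, without a test.

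The study mapped the RNA targets of IGF2BP3 by PAR-CLIP, in which RNA labelled with 4-thiouridine is crosslinked to protein by UV light, recovered with an antibody and sequenced, and crosslinked positions appear as base conversions in the reads. All 20 libraries came from HCT116, a human colorectal carcinoma line, in a derivative conditionally expressing the plant F-box protein OsTIR1, and all cells received 100 µM 4-thiouridine for 15 h. There were 3 anti-IGF2BP3 libraries each of DMSO, of tunicamycin at 5 µg/mL for 1 h and for 4 h, of PBS and of arsenite at 250 µM for 2 h, plus 1 control IgG library per condition. The vehicle DMSO was given for 4 h and PBS for 2 h. The titles name arsenite and the protocol names arsenate, and the titles were followed. The protocol gives more than 1 RNase concentration without assigning them to libraries. The library names place tunicamycin and DMSO replicates 1 and 2 in one set, replicate 3 with its IgG libraries in another, and the PBS and arsenite libraries in another. No label says that replicates came from separate cultures, so a p-value measures the spread between these libraries only.

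Total gene counts were 457179, 765710 and 1568406 in the tunicamycin 4 h libraries and 374238, 960565 and 1287291 in the DMSO libraries, with 18304, 31891 and 63172 clusters against 14287, 39970 and 51728. The other anti-IGF2BP3 libraries held 3501 to 45510 clusters, the fewest in PBS replicate 2, and the IgG libraries 25 to 152. Of the epithelial markers, KRT8 had a cluster in 14 of the 15 anti-IGF2BP3 libraries, EPCAM in 13, CDH1 in 10, KRT19 in 8, KRT18 in 4 and VIL1 in 1. The leukocyte gene PTPRC, the endothelial gene PECAM1 and the fibroblast genes COL1A1 and COL3A1 had none.

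Tunicamycin blocks the first step of N-linked glycosylation, so that unfolded glycoproteins accumulate in the endoplasmic reticulum (ER). The unfolded protein response answers through 3 sensors: ATF6 and IRE1, which with XBP1 induce chaperones and ER-associated degradation, and PERK, which phosphorylates eIF2α and raises ATF4 and DDIT3. Arsenite causes oxidative and proteotoxic stress and also leads to eIF2α phosphorylation. IGF2BP3 is an oncofetal RNA-binding protein with RRM and KH domains that binds mRNAs, often near CA-rich elements, and affects their stability, transport and translation. A cluster can appear because an RNA became more abundant or because it was bound more, and these cannot be told apart here.

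The sequences below were taken from the deposited cluster lists. The first 7 are the HERPUD1, HSPA5 and DDIT3 regions among the 12 members with the highest read count in their lowest tunicamycin 4 h library. The last is the DNAJB1 region, shown for the reads of the arsenite clusters that overlapped it. Each is the 30 nt around the position that the lists give as the mode of the cluster with the most tunicamycin 4 h reads in that region, written as DNA on the strand of the RNA, in GRCh38 coordinates. Capitals mark CAT followed by any base but G, a short CA-containing word in IGF2BP binding sites.
HERPUD1, chr16:56943461-56943490, plus strand: attggtgaacaaaaaatgcccaaggcttct
HERPUD1, chr16:56943749-56943778, plus strand: cttttctaggaaagacttatgtataattgc
HERPUD1, chr16:56940031-56940060, plus strand: gctcctcaagtggttgttaatcctggagcc
HERPUD1, chr16:56943329-56943358, plus strand: atggactggatcacctgactccagctagat
HSPA5, chr9:125237126-125237155, minus strand: ggtgaaagacccctgacaaaagacaatcat
HSPA5, chr9:125238284-125238313, minus strand: tacaggtgacctggtactgcttgatgtatg
DDIT3, chr12:57516674-57516703, minus strand: aCATAcgcagggggaaggcttggagtagac
DNAJB1, chr19:14515875-14515904, minus strand: tccagagctcaaggatttctggacctttct
Of the 21 members in HERPUD1, HSPA5 and DDIT3, all with such a window, 6 held the marked word, and of those printed only the DDIT3 window did.

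Most members were sparse. The median read count of a member was 5, 6 and 8 in tunicamycin 4 h replicates 1, 2 and 3, in the 424, 1547 and 1816 members with a cluster there. Shared regions had medians of 11, 13 and 30 reads in the same libraries. In their best library, 700 members (38.2%) reached 10 reads, 89 reached 20 and 5 reached 50. Only 123 members had a cluster in all 3 lists, while 1408 (76.9%) had one in replicates 2 and 3, 285 in replicates 1 and 3 and 16 in replicates 1 and 2. Replicate 1 was the shallowest of the 3. Under the rule without it 1540 regions were gained, without replicate 2 of tunicamycin 4 h 417 and without replicate 3 162. The count also moved with the controls, to 4834 without DMSO replicate 3 and 2897 without DMSO replicate 2. The count of lost regions moved the other way, to 1784 and 6896 without tunicamycin 4 h replicates 2 and 3 and to 91 and 57 without DMSO replicates 2 and 3. Leaving out a list made the rule stricter for one class, which then needed both remaining lists, and looser for the other. The opposite movement is thus partly set by the rule, and which of the classes was larger depended on the list left out. With all 6 lists cut to 14287 clusters, 864 regions were gained and 690 lost.

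Just outside the rule lay 19095 regions with a cluster in 1 tunicamycin 4 h list and no DMSO list, with median read counts of 5 and 6 in replicates 2 and 3. A further 3724 regions had clusters in at least 2 tunicamycin 4 h lists and in 1 DMSO list. Their medians were 6 and 11 reads in tunicamycin 4 h replicates 2 and 3, and 7 and 8 reads in DMSO replicates 2 and 3 where a cluster was present. The values on both sides of the rule thus overlapped widely.

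By read count in the lowest tunicamycin 4 h library, most of the strongest members lay in HERPUD1, HSPA5 and DDIT3. Of the 12 members with the highest read count in their lowest tunicamycin 4 h library, 4 were in HERPUD1, 2 in HSPA5 and 1 in DDIT3. The other 5 were in the pseudogenes HSPA5P1, LOC100288073, RPS24P16 and RPL10AP2 and in 1 stretch of chromosome 7 outside the annotated genes. The cut at 12 fell on a tie. HERPUD1 members with 8, 48 and 50 and with 8, 19 and 30 reads were kept, and an HSPA5 member with 8, 19 and 26 was not.

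HERPUD1 encodes an ER membrane protein of the ER-associated degradation machinery. It held 8 members that began 7104 to 11478 nt from the start of its 12723 nt gene. The leading one, 205 nt long, had 20, 82 and 81 reads in the 3 tunicamycin 4 h libraries. A second, 186 nt long, had 12, 19 and 45 reads, and another, 123 nt long, had 8, 48 and 50. The whole gene carried 9, 13 and 14 clusters at tunicamycin 4 h against 0, 1 and 1 in DMSO. In RPM, the reads in a gene's clusters per 1000000 cluster reads of the library, this was 422, 745 and 367 at tunicamycin 4 h (mean 511 ± 204, SD, n = 3) against 0, 16.3 and 6.56 in DMSO (7.62 ± 8.20), and 0 in all 3 libraries of tunicamycin 1 h. Gene totals include the reads of the members, which by the rule have none in DMSO. The difference from DMSO is thus partly set by the rule.

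HSPA5 encodes BiP, the main Hsp70 chaperone of the ER lumen. Its 8 members began 459 to 4186 nt from the start of a 6491 nt gene. The best covered had 13, 29 and 49 reads and 10, 39 and 48 reads. HSPA5 had more clusters in the control than HERPUD1: the gene had 2, 4 and 3 clusters in DMSO against 10, 17 and 20 at tunicamycin 4 h. Most of the DMSO clusters lay downstream of all 8 members, towards the 3′ end of the gene. The gene's RPM values were 1397, 1836 and 979 at tunicamycin 4 h (1404 ± 429, SD, n = 3), 292, 201 and 221 in DMSO (238 ± 48.1) and 345, 272 and 265 at tunicamycin 1 h (294 ± 44.2).

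DDIT3 encodes CHOP, the transcription factor downstream of PERK and ATF4 that is associated with stress-induced apoptosis. All 5 of its members began 3090 to 3855 nt from the start of a 3930 nt gene. The leading member, 194 nt long, had 31, 57 and 89 reads at tunicamycin 4 h, and the next had 0, 15 and 32. DDIT3 had no cluster in any DMSO, tunicamycin 1 h or PBS library. The gene's clusters held 37, 112 and 177 reads at tunicamycin 4 h, or 160 ± 41.7 RPM (SD, n = 3). A list holds clusters of at least 2 reads and 2 conversion positions, so a value of 0 means only that no cluster was called.

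The members were set against 5 lists of stress genes and 1 list of IGF2BP genes and known targets. As background, 6677 protein-coding genes with a known strand held at least 1 merged region, of which 15.65% had a gained and 12.39% a lost one. In the 78 genes of the 5 stress lists there were 70 gained regions, in 33 genes, and 3 lost regions, in 3 genes. The lists include genes of unknown strand and genes without any cluster, so these counts and the background are not on the same set. The same lists held 33, 15, 24, 56 and 16 shared regions, in the order in which they follow.

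Of 16 ER chaperone and folding genes, 9 held 22 gained regions and none held a lost one. Besides HSPA5 these were HSP90B1 (GRP94), the lectin chaperone gene CANX, the co-chaperone genes DNAJB9 and DNAJC3, HYOU1, and the disulfide isomerase genes PDIA3, PDIA4 and P4HB. A DNAJB9 member had 6, 5 and 19 reads and a PDIA3 member 5, 6 and 11 reads in tunicamycin 4 h replicates 1 to 3. The HYOU1 member 30 nt from the end of its gene had 7, 11 and 13. HSP90B1, with 2 members, had 468, 590 and 426 RPM at tunicamycin 4 h against 85.7, 66.5 and 91.9 in DMSO. DNAJB9 had 200, 292 and 188 against 0, 46.2 and 29.1. P4HB differed little, with means of 1106 ± 207 RPM at tunicamycin 4 h and 1065 ± 255 in DMSO (SD, n = 3). CANX had 2532 ± 657 and 2217 ± 425. Ranges of the groups overlapped for P4HB, CANX, DNAJC3 and PDIA4, and did not for HSPA5, HSP90B1, DNAJB9, HYOU1 and PDIA3. All these totals include the reads of members, which by the rule have none in DMSO.

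Of 14 genes of the XBP1 and ER-associated degradation list, 4 held 15 gained regions: HERPUD1, the E3 ligase gene SYVN1, its partner SEL1L, and DERL2, a component of the retrotranslocation complex. The 3 SYVN1 members had no cluster in replicate 1 and 4 to 10 reads in replicates 2 and 3. ATF6 and DERL2 each had a lost region, so DERL2 held both kinds. XBP1 had no member.

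Of 17 genes of the integrated stress response, which is the eIF2α phosphorylation pathway, 9 held 17 gained and no lost regions. DDIT4, an inhibitor of mTORC1 signalling, had 3 members, of which the first had 0, 12 and 35 reads. Its gene total was 319, 373 and 321 RPM at tunicamycin 4 h against 0, 39.4 and 12.2 in DMSO. CHAC1, which degrades glutathione, had 2 members with 0, 11 and 39 reads and 0, 12 and 23 reads. TRIB3, a pseudokinase induced by ATF4 and CHOP, also had 2. SESN2, CEBPG, GDF15, PPP1R15A (the eIF2α phosphatase subunit GADD34) and VEGFA had 1 each, and ATF4 itself had none.

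Amino acid genes, many of them ATF4 targets, came next, with 10 gained and no lost regions in 6 of 19 genes. These were the transporter genes SLC7A1, SLC7A11 and SLC1A5, the serine synthesis gene PSAT1 and the mitochondrial one-carbon genes SHMT2 and MTHFD2. An SLC7A11 member had 5, 11 and 11 reads. Among 12 cytosolic aminoacyl-tRNA synthetase genes, 5 (EPRS1, IARS1, SARS1, TARS1 and WARS1) held 6 gained regions, and TARS1 also held the 1 lost region. The list of IGF2BP genes and known targets held 4 gained regions, in CCND1, CD44 and CTNNB1, and 2 lost regions, in HMGA2 and IGF2BP3. That list held 53 shared regions.

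**Figure D1:**
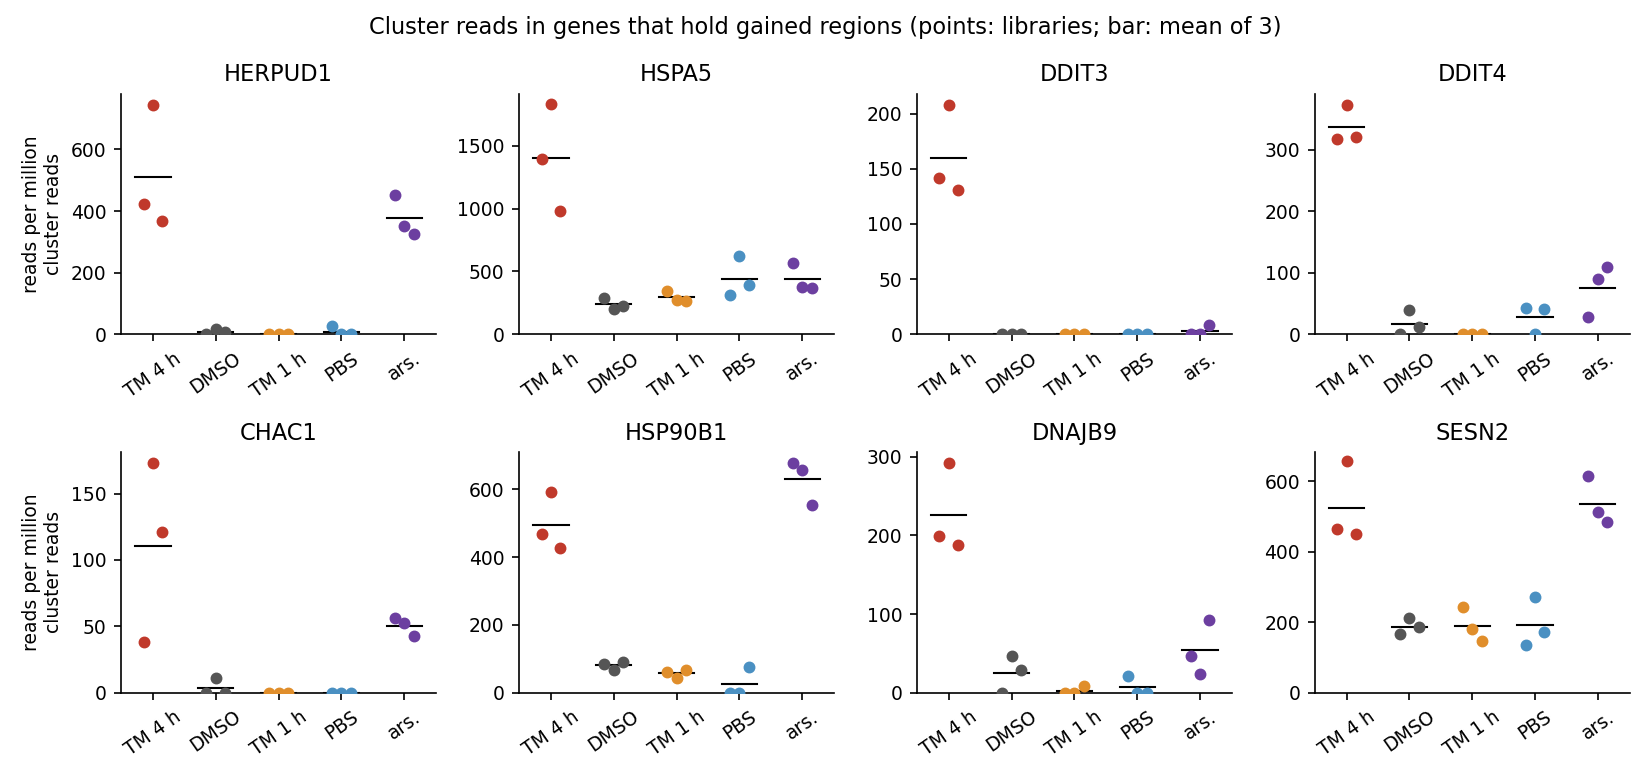
Reads in a gene's clusters relative to all cluster reads of a library (RPM, vertical axis, linear and starting at 0) for 8 genes that hold gained regions; points are libraries, bars are means of 3, and ars. is arsenite. HERPUD1 reaches 367 to 745 at tunicamycin 4 h and 325 to 451 under arsenite, while DDIT3 is at 0 in all DMSO, tunicamycin 1 h and PBS libraries.

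With a known strand, 1267 members (69.2%) lay in 1045 protein-coding genes, and 242 more in coding genes of unknown strand. Of the 1045 genes 875 had 1 member, 170 had at least 2 and 30 had at least 3. MKI67, which encodes the proliferation marker Ki-67, had 8, but it also had 18 shared regions. Its gene total was 929, 938 and 930 RPM at tunicamycin 4 h against 872, 775 and 640 in DMSO (932 ± 4.70 and 762 ± 117, SD, n = 3). This total includes the reads of the 8 members, which by the rule have none in DMSO. PCNX1 had 4 gained and 3 lost regions. Among the 24 genes with 3 members were SEC61A1, a subunit of the ER translocon, PPIB, an ER cyclophilin, and the chromatin genes KMT2A, KMT5B, CREBBP and TET2. CREBBP had as many lost as gained regions, and ZBTB20 had 4 lost and 3 gained. The 3 members counted for ZBED6 and for ALDOA lay in overlapping genes, ZC3H11A and LOC112694756, and cannot be assigned to one of them.

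Near-identical gene copies make the place of some members uncertain. By class, 13.7% of gained, 7.48% of lost and 11.3% of shared regions lay in a pseudogene span of matching or unknown strand. The 30 nt window of 14.1% of the 1684 gained regions that had one occurred letter for letter in a cluster elsewhere, against 10.0% of lost and 17.6% of shared regions. The 7 members counted for LRRC28 all lay in HSP90B2P, a pseudogene copy of HSP90B1. Of their windows 4 occurred unchanged in HSP90B1 clusters. One of these 4 is printed first below, followed by windows of the HSPA5P1 and LOC100288073 members, each of which occurred unchanged in HSPA5.
HSP90B2P, chr15:99259138-99259167, plus strand: acttcttaggttccagtcttctCATCATCc
HSPA5P1, chr1:38710876-38710905, plus strand: aaaaagatgagttgtagacactgatctgct
LOC100288073, chr4:164189865-164189894, plus strand: aagtcacctttgagatagatgtgaatggta
The LOC100288073 member had 9, 21 and 30 reads and the HSPA5P1 member 9, 17 and 25, so these rank among the strongest members while their reads could stem from HSPA5 RNA. The RPS24P16 window likewise occurred in RPS24, and the RPL10AP2 window occurred at 3 places, its own included. How reads with more than 1 matching place were handled was not given in the sources used here.

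Most host genes were already bound in the control. Of the 1045 coding host genes, 620 (59.3%) had clusters elsewhere in all 3 DMSO lists, 275 in 2, 88 in 1, and 62 (5.93%), with 72 members, in none. These shares were not set against those of host genes of lost or shared regions. DDIT3 led the 62 by reads, and COX7B, a subunit of cytochrome c oxidase, followed with 5, 14 and 44 reads in its clusters at tunicamycin 4 h. Next came AP4E1, NDUFB4 and CLK1, a kinase of splicing factors, which had 0, 17 and 29 reads at tunicamycin 4 h. The nearest DMSO cluster on the same strand lay a median of 187 nt from a member, within 200 nt for 51.3% of members and beyond 10000 nt for 12.6%. Lost regions were nearer to a tunicamycin 4 h cluster, at a median of 94 nt, with 65.4% within 200 nt.

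The share of members at the 3′ ends of genes was lower than that of lost or shared regions. No exon annotation was used here, so position was taken along the gene span. Beyond 90% of the span lay 47.5% of the 1267 gained regions in coding genes, 62.6% of 985 lost and 61.5% of 11327 shared regions. The gained share was 48.9%, 47.0% and 47.4% in the members of tunicamycin 4 h replicates 1, 2 and 3, and the lost share 62.0%, 62.7% and 62.6% in those of DMSO replicates 1, 2 and 3. Without the genes that held at least 3 members the gained share was 49.8%. The regions just outside the rule with 1 DMSO cluster had 51.3%, and their mirror, with 1 tunicamycin 4 h cluster, 61.5%. Lost regions lay in longer genes, with a median span of 53940 nt against 40520 nt for gained and 39610 nt for shared regions. Within 2000 nt of the gene end lay 36.9% of gained, 42.5% of lost and 47.8% of shared regions. By this fixed distance the gap between gained and lost regions was smaller, and lost regions lay below shared ones. Regions of a gene share its RNA and are not replicates, so these shares have no test.

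**Figure D2:**
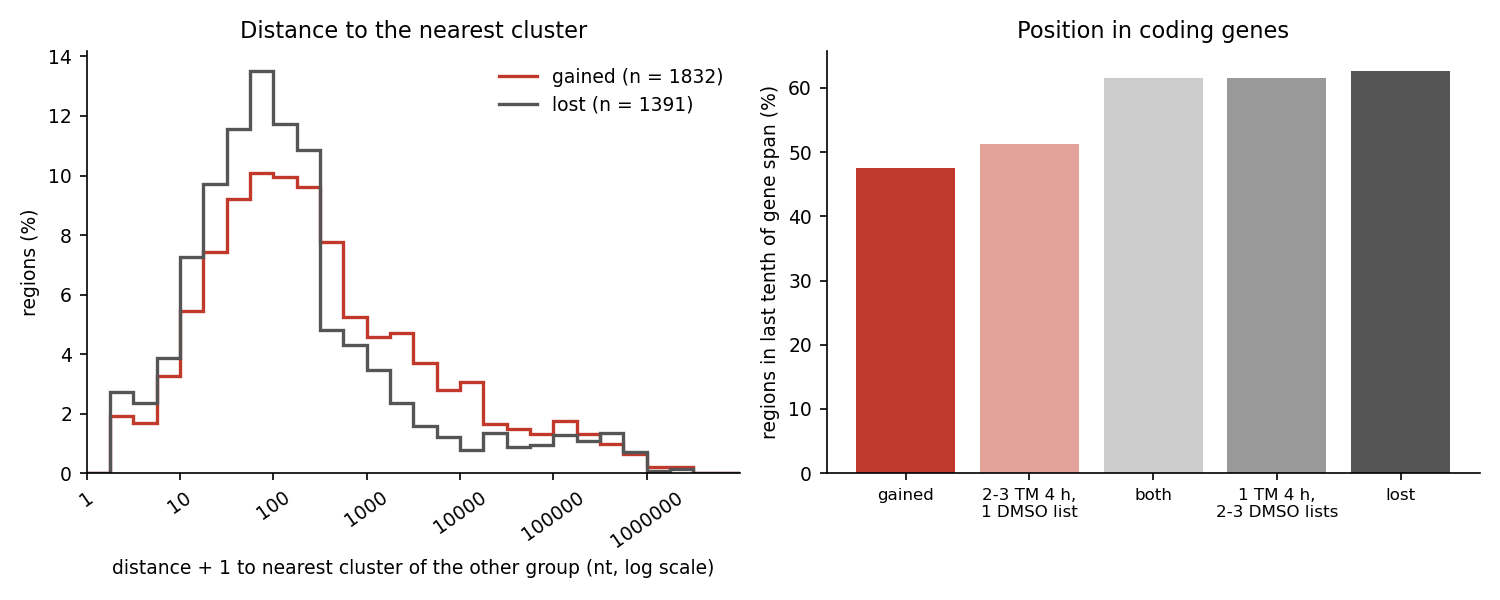
Left, share of gained and lost regions by distance to the nearest cluster of the other group on the same strand (nt, log scale); right, share of regions in coding genes that lie beyond 90% of the gene span, for 5 classes of region. Gained regions peak at distances similar to lost regions but extend further, and 47.5% of them lie at the end of the span against 62.6% of lost regions.

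Gained and lost regions were of similar size, with medians of 63 nt (22 to 288) and 59 nt (21 to 177), and shared regions were longer, at 137 nt. The 30 nt windows of gained regions had more G and C, 45.7%, than those of lost (42.0%) or shared regions (43.5%), and less T than lost regions, 28.4% against 32.4%. CAT followed by any base but G, the word in capitals in the sequences above, occurred in 40.1% of gained, 42.5% of lost and 37.3% of shared windows. ACA occurred in 45.6%, 43.4% and 46.3%. GGC occurred in 28.5%, 22.03% and 25.2%, GGAC in 8.55%, 5.25% and 7.71%, and TTTTT in 4.87%, 8.23% and 6.19%. For the regions just outside the rule with 1 DMSO cluster GC was 44.4%, between the gained and shared values. Searches were on the RNA strand only, words may overlap, and a match is no more than the letters.

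Conversion events took a larger share in members than in shared regions. Their share of all events in the clusters of members was 10.6%, 10.2% and 9.25% in tunicamycin 4 h replicates 1, 2 and 3, against 8.69%, 8.30% and 7.47% in shared regions of the same libraries. Lost regions in DMSO had 9.32%, 8.41% and 8.10% against 8.02%, 7.64% and 7.69% in shared regions. Both kinds of region lay above the shared regions in each library, and clusters in both were shorter than those in shared regions. Both also had lower median read counts, and the lists hold only clusters of at least 2 conversion positions. What this minimum adds to the share in sparse clusters was not tested. Of the 1832 members 1 had a cluster in an IgG list, that of PBS, and it lay in no annotated gene.

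The 9 anti-IGF2BP3 libraries that the rule did not use had no part in choosing the members, and all 6 PBS and arsenite libraries belong to 1 library set. Under arsenite 185, 352 and 809 members had a cluster (10.1%, 19.2% and 44.2% in replicates 1 to 3), and in PBS 75, 3 and 67 (4.09%, 0.16% and 3.66%). All 3 arsenite libraries thus covered more members than any PBS library. The mean was 24.5 ± 17.6% (SD, n = 3) under arsenite and 2.64 ± 2.15% in PBS, a difference of 21.9 percentage points (two-sided exact permutation test, p = 0.1, adjusted over 2 tests 0.1, the smallest p that 3 against 3 libraries allow). The arsenite lists were also longer, with 15529, 25100 and 45510 clusters against 16322, 3501 and 15541. Cut to the 3501 strongest clusters each, they differed by 0.58 points, and without PBS replicate 2, cut to 15529 each, by 6.81 points. Leaving out arsenite replicate 3 gave 12.02 points.

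Lost regions served as a measure of depth, since they were equally absent from one of the groups of the rule. In arsenite 65, 177 and 423 lost regions had a cluster, and in PBS 68, 3 and 48. There were 1832 gained and 1391 lost regions, so with equal shares covered the log2 ratio of their counts is positive. The log2 ratio of gained to lost regions with a cluster (0.5 added to each) was 1.502, 0.99 and 0.93 under arsenite and 0.14, 0 and 0.48 in PBS. The means were 1.14 ± 0.31 and 0.21 ± 0.25 (SD, n = 3), a difference of 0.94 (two-sided exact permutation test, p = 0.1, adjusted 0.1), again with no overlap between the groups. With the lists cut to 3501 clusters the difference was 0.27 (exact p = 0.6). Cut to 15529 clusters without PBS replicate 2 it was 1.08 (exact p = 0.2, the smallest that 3 against 2 libraries allow). Arsenite replicate 1 and PBS replicates 1 and 3 had nearly equal numbers of clusters, and there 185 gained and 65 lost regions stood against 75 and 68, and 67 and 48.

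At tunicamycin 1 h the members were no more covered than lost regions. There 6, 81 and 534 members (0.33%, 4.42% and 29.2%) had a cluster, against 13, 87 and 585 lost regions (0.93%, 6.25% and 42.1%). The log2 ratios were -1.05, -0.10 and -0.13. Tunicamycin 1 h has only the 4 h DMSO treatment as its control, so the time differs as well. The empty DMSO lists chose the members, so these values are given without a test. Of the 1832 members 1259 had a cluster in no tunicamycin 1 h list, and 653 (35.6%) had none in any of the 9 libraries, against 36.4% of lost regions.

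**Figure D3:**
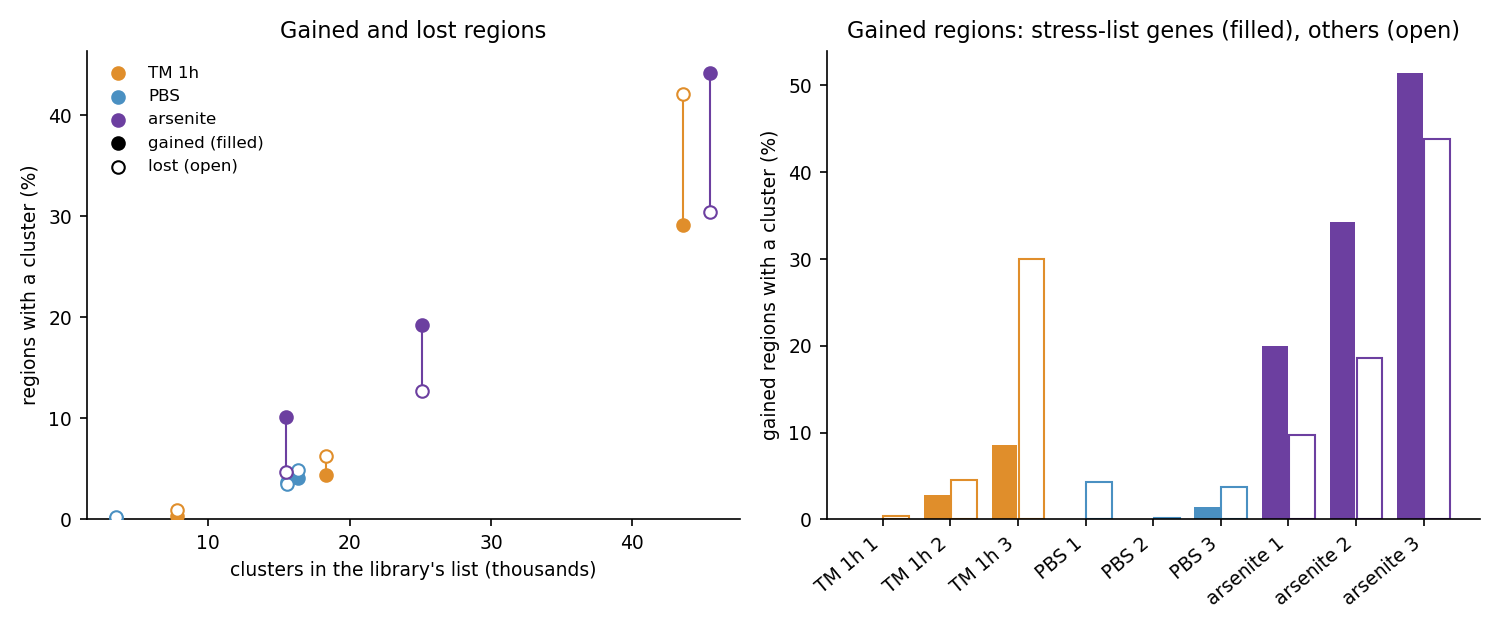
Left, share of gained (filled) and lost (open) regions with a cluster in each of the 9 libraries not used by the rule (vertical axis, %), by the number of clusters in the library's list; right, share of the 70 gained regions in stress-list genes (filled) and of the other 1762 (open) with a cluster in each library. Gained lie above lost regions in the 3 arsenite libraries and below them in the 3 tunicamycin 1 h libraries.

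Region by region, 309 members (16.9%) had a cluster in at least 2 arsenite lists and in no PBS list, where the background over all 68591 merged regions was 9.82%. The share was 8.27% of lost and 14.4% of shared regions, so that of the members was nearest to the shared regions. The reverse, at least 2 PBS lists and no arsenite list, held for 2 members, with a background of 0.226%. HERPUD1 had 7 of its 8 members in the first set, HSPA5 had 2 of 8, and DDIT3 had none. Of the 70 stress-list members 21 were in it, with 7 in ER chaperone genes, 7 in the XBP1 and degradation list, 3 in amino acid genes, 2 in integrated stress response genes and 2 in synthetase genes.

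In each library, 14, 24 and 36 of the 70 stress-list members (20.0%, 34.3% and 51.4%) had a cluster under arsenite, 0, 0 and 1 in PBS, and 0, 2 and 6 (0%, 2.86% and 8.57%) at tunicamycin 1 h. Of the other 1762 members, 9.70%, 18.6% and 43.9% had one under arsenite, 4.26%, 0.17% and 3.75% in PBS, and 0.34%, 4.48% and 29.97% at tunicamycin 1 h. The covered share of stress-list members was the higher in each arsenite library and the lower in each tunicamycin 1 h and PBS library. None of these differences was tested. Of the 15 members of the XBP1 and degradation list, 8 of which lie in HERPUD1, 6, 6 and 8 were covered under arsenite. The integrated stress response list had 2, 2 and 8 of 17. Members in the same gene share its RNA and are not replicates.

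Whole-gene values under arsenite differed among the genes that led at tunicamycin 4 h. HERPUD1 had 451, 352 and 325 RPM under arsenite (376 ± 66.0, SD, n = 3) against 25.3, 0 and 0 in PBS (8.43 ± 14.6), with no overlap. HSP90B1 had 676, 657 and 554 against 0, 0 and 76.6, and SESN2, a stress-induced inhibitor of mTORC1, had 615, 512 and 484 against 135, 273 and 171, also without overlap. CHAC1 had 56.3, 52.5 and 43.0 under arsenite and no cluster in PBS.

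HSPA5, by contrast, had 568, 373 and 368 under arsenite and 312, 620 and 391.8 in PBS, so that the groups overlapped. The ranges also overlapped for DDIT4, with 28.2, 89.3 and 109 against 42.1, 0 and 40.5. DDIT3 had 1 cluster of 7 reads in arsenite replicate 3 and none in the other arsenite libraries. PBS replicate 2 had few clusters, so its values rest on few reads. Whether arsenite and tunicamycin differ in these genes was not tested.

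Outside the stress lists, 12 members were picked after their values had been seen, as those of the 309 with the highest read count in their lowest arsenite library. The foremost lay in DNAJB1, which encodes an Hsp40 co-chaperone of the cytosolic heat shock response. The arsenite clusters that overlapped that region had 135, 1206 and 2379 reads. Counts were 0, 7 and 10 at tunicamycin 4 h, 0, 0 and 9 at tunicamycin 1 h and none in PBS or DMSO. Outside the lists of the rule, reads are of whole clusters that overlap a member by at least 1 nt and may extend beyond it. The nearest DMSO cluster on the same strand lay 28 nt from the DNAJB1 region and 15 nt from the SRSF3 region named next. SRSF3, a splicing factor gene, had a region with 20, 31 and 187 reads under arsenite and 0, 11 and 26 at tunicamycin 4 h. The PLRG1 region, in a spliceosome gene, had 16, 22 and 38 and 5, 13 and 24, and a CTNNB1 region, in the gene for β-catenin, had 14, 19 and 38 and 0, 6 and 19. EIF5, ATP6V0C, CCDC50, ARHGAP29, SGMS2, PPP2CA, KIF23 and the pseudogene RPS27P26 made up the rest.

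ATF6 and XBP1 act on promoters through ER stress response elements, and the members' host genes were searched for them. RefSeq (GRCh38.p14) windows from 250 nt before to 50 nt after the gene start were searched on both strands. CCAAT followed after 9 bases of any kind by CCACG was in the window of 5 of the 1045 coding host genes (0.48%: HSPA5, HSP90B1, CANX, FICD and TRIM5), of 21 of all 15842 genes (0.13%) and of 0 of 827 host genes of lost regions. ATTGG followed after 1 base by CCACG was in 3 of the 1045 (0.29%: HERPUD1, HYOU1 and GYS1), 15 of all genes (0.09%) and 1 of the 827. TGATGCAA, a word found in CEBP-ATF elements, was in 14 (1.34%, with CEBPG, CHAC1, HERPUD1, IARS1, SLC1A5 and TARS1 among them), 0.90% of all genes and 5 of the 827 (0.60%). TGACGTGG, a form of the ATF6 site, was in 15 (1.44%), 166 of all genes (1.05%) and 6 of the 827 (0.73%). Host genes of shared regions had 0.27%, 0.13%, 0.80% and 1.26% for the 4 words in this order.
The 150 nt before the gene start of the genes with the most members in the stress lists are printed with these elements in capitals.
HSPA5 promoter, chr9:125241344-125241493, minus strand: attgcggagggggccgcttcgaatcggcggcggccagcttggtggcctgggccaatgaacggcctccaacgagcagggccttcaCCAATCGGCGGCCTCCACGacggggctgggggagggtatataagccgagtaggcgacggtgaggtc
HERPUD1 promoter, chr16:56931992-56932141, plus strand: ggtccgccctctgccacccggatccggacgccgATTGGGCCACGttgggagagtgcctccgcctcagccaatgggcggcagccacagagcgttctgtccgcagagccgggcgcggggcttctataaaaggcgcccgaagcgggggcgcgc
The element in capitals began 66 nt before the start of HSPA5 and 117 nt before that of HERPUD1. The TGATGCAA match of HERPUD1 lay on the opposite strand at 176 nt before the start, outside the printed stretch. A match is a description of the letters and not a measured site, and most of the 1045 genes had none of the 4 words.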

How the data were processed

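Groups follow the treatment and antibody in the labels. The authors deposited 1 list of clusters per library with read counts and counts of conversion events per cluster, and a table of gene counts, both raw per the file headers and values. Per the submitters' processing notes, the tools were bcl2fastq 2.20.0.422, UMI-tools 1.1.1, Trimmomatic 0.30, Bowtie 0.12.7 and featureCounts 2.0.1 with GRCh38.p13/hg38. The cluster caller is not given in the sources used here. All columns were matched to samples (0 left over). For the PBS and arsenite IgG libraries, list names and samples were swapped, and each list was kept with the sample that holds it.

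Clusters were merged and classed with Python 3.11.15, pandas 2.3.3 and numpy 2.4.6, and exact permutation tests over libraries (two-sided, Benjamini-Hochberg over 2 tests) used scipy 1.17.1. The merging and the tests were tested on simulated data. Gene spans, symbols and promoters came from RefSeq GRCh38.p14, and all 176 clusters of tunicamycin 4 h replicate 3 inside promoter windows had the same sequence there. Strand was known only for genes with a promoter entry, and a host gene of known matching strand took precedence. RPM values leave out clusters of the mitochondrial chromosome, where 0 regions were gained. The gene count table gave total counts per library, which set the precision. Over genes, all 15 pairs of anti-IGF2BP3 replicates differed by chi-square tests, with a largest p of 8.8e-23.

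The members, gene lists and alternatives were chosen with earlier results of these data known. Regions named are the 12 members of all 3 tunicamycin 4 h lists with the highest read count in their lowest library, members in the gene lists and genes with at least 3 members. The planned edgeR tests of host genes were not run, because no table here pairs the gene identifiers of the count table with symbols. Alternatives were the overlap, a read minimum, lists of equal length, all 3 lists, each replicate left out, replicates as blocks and 1 library set alone.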

Additional observations from a re-analysis of the deposited data

How the results depend on the processing

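An overlap of 10 nt gave 1898 gained regions and clusters of at least 5 reads gave 1772. The count of 1832 moved to 123 when all 3 lists of a group were required (27 lost), to 864 with lists of equal length (690 lost) and to 620 in the library set of replicates 1 and 2 alone (656 lost), an alternative added after seeing the data. Leaving out 1 replicate gave 162 (without tunicamycin 4 h replicate 3) to 4834 (without DMSO replicate 3), with 6896 and 57 lost regions, and the gained regions in stress-list genes, 70, gave 20 to 105. Requiring all 3 lists left 16 of these, equal lists 55 and the library set of replicates 1 and 2 alone 29.

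The arsenite minus PBS difference in the share of members kept its direction in every setting run. It was 12.02 to 29.1 points when 1 replicate was left out and 0.58 points with lists cut to 3501 clusters. The log2 ratio of gained to lost regions was 0.76 to 1.07 when 1 replicate was left out, 0.27 with the cut lists and 1.08 with 5 lists cut to 15529 clusters. With a replicate block, in which libraries of the same number were paired, the differences were 21.9 points and 0.94 (exact sign-flip p = 0.25, the smallest it allows); nothing in the labels pairs these libraries. The planned tests of host genes at tunicamycin 4 h and under arsenite were not run.

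Depth limits most statements. With median counts of 5 to 8 reads per member, a missing cluster in DMSO, PBS or tunicamycin 1 h shows only that none passed the caller's minimum, not that binding was absent.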
